A study of Mus musculus with 15 samples.

Results

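The 10 genes described here carry out phosphate, Klotho and vitamin D handling in the kidney. They are 4 sodium phosphate carriers (Slc34a1, Slc34a3, Slc20a1 and Slc20a2), Klotho (Kl), the parathyroid hormone receptor (Pth1r), the fibroblast growth factor receptor Fgfr1, the vitamin D receptor (Vdr) and the enzymes that make and degrade active vitamin D (Cyp27b1 and Cyp24a1). They were picked by role and found by gene symbol, and are 10 of the 24421 gene symbols in the deposited table. All 10 passed the filter on low counts. The samples were kidneys of wild-type mice, taken 14 days after an operation. The sham group had a sham operation and a normal diet (n = 3), the UUO group had unilateral ureteral obstruction and a normal diet (n = 6), and the UUO_Si group had the same obstruction and a diet holding a silicon-based agent (n = 6). In this model a ureter is closed off, and the kidney behind it loses tubules and scars. No sham group received the agent. The labels gave no strain, sex, age, dose or start of feeding, and they did not say whether the replicates were separate animals, so the p-values measure the spread between these samples.

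Most filtered phosphate is taken back in the proximal tubule by the carriers NaPi-IIa (Slc34a1) and NaPi-IIc (Slc34a3), while PiT-1 (Slc20a1) and PiT-2 (Slc20a2) occur in many cell types. Parathyroid hormone, acting through Pth1r, and the bone hormone FGF23, acting through FGF receptors that need Klotho as partner, both withdraw these carriers from the brush border. The same hormones steer Cyp27b1, which makes calcitriol, and Cyp24a1, which breaks it down, and calcitriol acts through Vdr.

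Levels are given as CPM, the count relative to the scaled library size. Library totals, in units of 1e+06 counts, were 5.53 to 8.31 for sham, 11.2 to 15.4 for UUO and 7.75 to 11.5 for UUO_Si. The tissue label could be checked against nephron markers: the summed level of 12 proximal tubule markers was 12288 to 14053 CPM in the sham libraries, 999 to 1754 CPM under UUO and 808 to 1997 CPM under UUO_Si, with no marker at 0. Sums of 7 distal tubule markers were 2387 to 2750, 419 to 558 and 547 to 716 CPM, with Pvalb at 0 in 10 of the 12 obstructed libraries, and 6 markers of injured tubule summed to 924 to 1032, 5778 to 12038 and 4833 to 12621 CPM. Sums for 6 fibroblast and pericyte markers were 277 to 398, 4190 to 8013 and 3716 to 5208 CPM, and for 6 macrophage markers 105 to 137, 730 to 988 and 668 to 1080 CPM. Endothelial sums (5 markers) were 562 to 610, 489 to 708 and 503 to 610 CPM, and urothelial and smooth muscle sums (6 markers) 208 to 450, 201 to 594 and 123 to 307 CPM. A sum can hide markers that differ. In UUO against sham, edgeR's quasi-likelihood test (adjusted p under 0.05) called 2 endothelial markers higher and 2 lower. It called 4 of the 6 urothelial and smooth muscle markers higher and 0 lower, with a median log2 fold change of 2.63. In UUO_Si against sham it called 2 of these 6 higher and 1 lower, with a median of 1.10. Of all genes 53.9% and 52.7% were called. In whole-kidney RNA, fewer cells of a type and less RNA per cell cannot be told apart. In 4 libraries (sham replicate 3, UUO replicates 5 and 6, UUO_Si replicate 6), 785 to 1258 of 1456 olfactory and vomeronasal receptor genes were detected, against 83 to 136 in the other 11. Those 3 obstructed libraries also carried other sample codes (RM6 and RM7) than the remaining obstructed libraries (RM3 and RM4). The sources do not say what a code stands for.

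Promoter sequences are shown for Slc34a1, Slc34a3 and Kl, the members with the largest falls after obstruction. RefSeq promoters (GRCm38.p6) were matched for 7 of the 10 members, and 250 bases before each start were searched on both strands for 13 motifs. Capitals mark GTTAAT, a half-site of the kidney and liver factor HNF1, in Slc34a1 (chr13:55399398-55399647, plus strand), AGGTCA, a half-site of nuclear receptors, in Slc34a3 (chr2:25234235-25234484, minus strand), and GGGCGG, a GC box, in Kl (chr5:150952357-150952606, plus strand), each on either strand.
Slc34a1: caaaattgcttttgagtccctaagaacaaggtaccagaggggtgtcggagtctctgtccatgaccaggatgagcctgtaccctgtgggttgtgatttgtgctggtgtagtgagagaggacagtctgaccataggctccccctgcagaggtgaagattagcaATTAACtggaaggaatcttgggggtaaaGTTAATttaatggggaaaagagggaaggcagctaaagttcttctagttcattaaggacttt
Slc34a3: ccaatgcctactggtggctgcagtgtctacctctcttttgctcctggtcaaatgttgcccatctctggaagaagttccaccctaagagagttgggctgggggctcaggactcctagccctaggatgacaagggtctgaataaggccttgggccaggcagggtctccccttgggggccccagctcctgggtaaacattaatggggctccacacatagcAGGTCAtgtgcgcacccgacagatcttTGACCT
Kl: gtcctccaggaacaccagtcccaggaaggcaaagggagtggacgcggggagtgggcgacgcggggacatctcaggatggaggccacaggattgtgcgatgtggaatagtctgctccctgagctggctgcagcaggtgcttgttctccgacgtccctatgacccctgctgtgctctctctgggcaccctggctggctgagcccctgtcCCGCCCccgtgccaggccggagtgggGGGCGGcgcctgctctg
Each of these windows held 2 matches of its motif. They began 89 and 61 bases before the start in Slc34a1, 33 and 6 in Slc34a3, and 43 and 17 in Kl. GTTAAT occurred in 6.43% of all 32851 promoter windows of this length, AGGTCA in 14.02% and GGGCGG in 32.7%. GTTAAT was in none of the other 6 member promoters, AGGTCA was also in Slc20a1, and GGGCGG was also in Pth1r, Slc20a1 and Vdr. The cyclic AMP half-site TGACG (17.8% of windows) was in Pth1r and Slc20a1, the E-box CACGTG (6.02%) in Slc20a1, the CCAAT box (33.8%) in Cyp27b1, Pth1r, Slc20a1 and Slc34a3, and GATAAG (6.55%) in Pth1r. No member window held AGGTCA repeated in the same direction with 3 bases between the copies (0.00609% of windows), the spacing known for Vdr, or with 1 base between them (0.0335%). None held the HNF1 palindrome, GTTAAT and its reverse complement with 1 base between them (0.00913%), the HNF4 sequence CAAAGTCCA (0.384%), the C/EBP sequence TTGCGCAA (0.164%) or the TATA box TATAAA (12.4%). AGGTCA is contained in both repeats and GTTAAT in the palindrome. A match describes letters only. The bases just after the RefSeq start lay in 0 of 6 GENCODE transcripts of Slc34a1, 2 of 7 of Slc34a3 and 1 of 2 of Kl. The whole Slc34a1 window lies inside the GENCODE span of its gene. So does the part of the Slc34a3 window that holds both matches.

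The comparison of UUO with sham asked how obstruction moved these genes on the normal diet. Of the 10 members, Slc34a1, Slc34a3, Slc20a1, Kl, Pth1r and Vdr fell, Fgfr1 rose, and Slc20a2 and Cyp27b1 did not pass the test. Cyp24a1 passed as lower, but the call was lost in 12 of 20 alternatives and its direction rested on 1 sham library. The falls ranged from 35.3-fold for Slc34a1 to 1.63-fold for Slc20a1. By edgeR's quasi-likelihood test at an adjusted p of 0.05 this was 8 of 10 members, 7 lower and 1 higher, against 53.9% of all 16752 genes tested (26.4% lower and 27.5% higher). At an unadjusted p under 0.05 it was also 8 of 10, against 58.8% of all genes. The groups did not overlap in 6 of 10 members, against 46.9% of all genes. Without Slc34a3, whose counts were low in the obstructed libraries, 7 of 9 passed and 5 of 9 did not overlap. The median log2 fold change of the members was -1.28, and that of all genes -0.04. Without the 4 receptor-gene libraries 9 members passed, Slc20a2 being added, against 57.4% of all genes at that setting. Without sham replicate 1 the calls of Slc20a1 and Cyp24a1 were lost, leaving 6 members against 43.3% of all genes, and Cyp24a1 turned to 0.89.

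**Figure D1:**
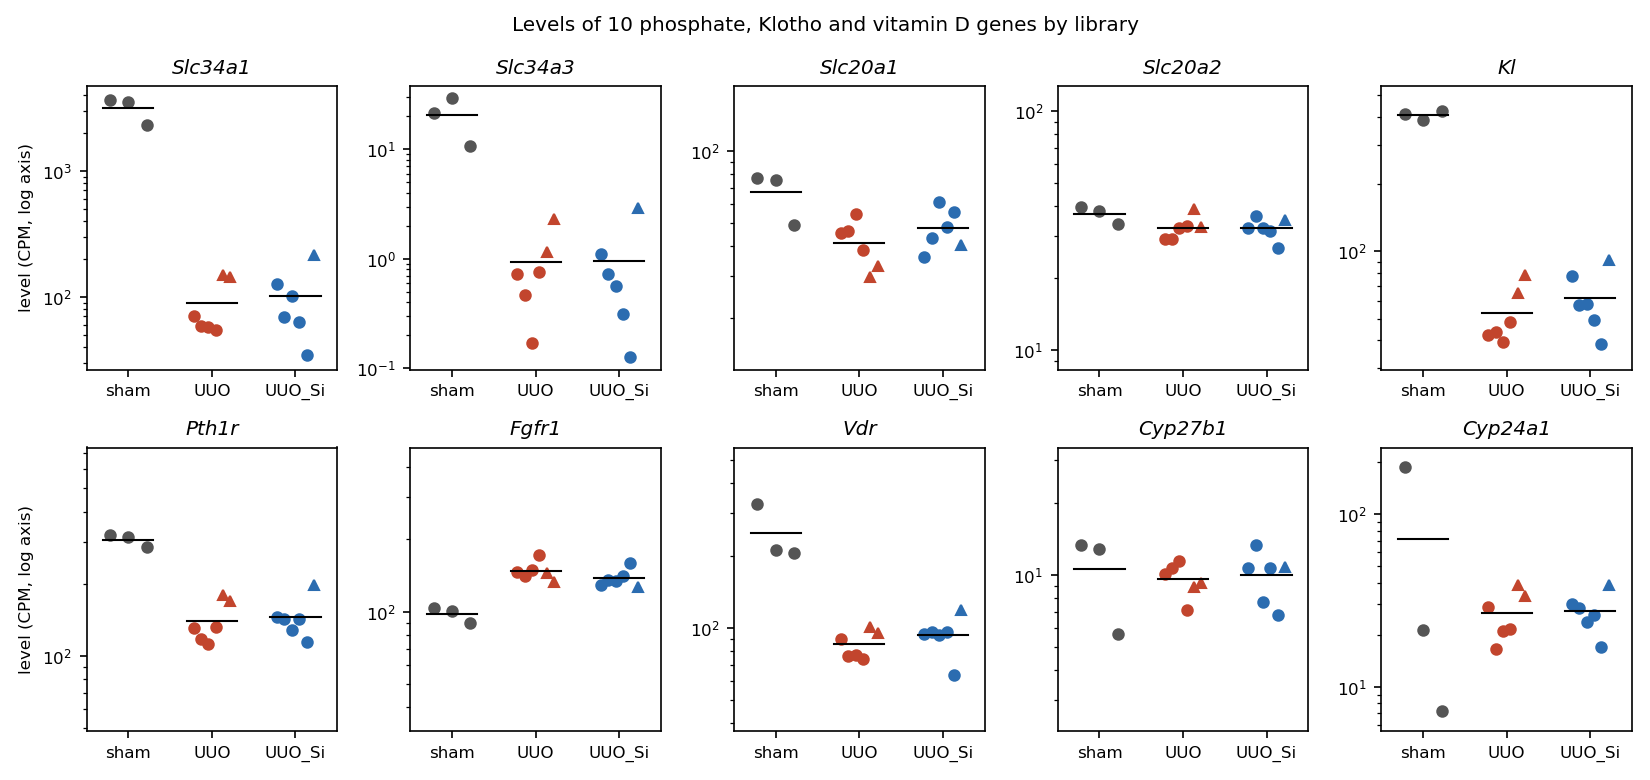
Level of each of the 10 genes in CPM (log axis) in the 3 sham, 6 UUO and 6 UUO_Si libraries. Each point is a library, the bar is the group mean and triangles mark codes RM6 and RM7. In Slc34a1, Slc34a3, Kl, Pth1r, Vdr and Fgfr1 all 12 obstructed libraries lay on 1 side of the 3 sham libraries, and in Cyp24a1 a sham library at 186 CPM stood above all others.

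Among the carriers, Slc34a1 (GRCm38 chromosome 13, 55398187 to 55415592, plus strand), which encodes the main phosphate carrier of the brush border, was at 3616, 3484 and 2326 CPM in the sham libraries. In UUO it ranged from 54.2 to 149 CPM with a median of 64.6. Every UUO library was thus far below every sham library, and the 2 highest of them, at 145 and 149 CPM, were those with code RM6. Means were 3142 ± 710 and 89.0 ± 44.9 CPM (SD, n = 3 and 6), a log2 fold change of -5.14 ± 0.46 (SE; adjusted p = 6.6e-08 by edgeR's quasi-likelihood test). Slc34a1 shares 545 exonic bases, 11.7% of its exons, with Pfn3 on the opposite strand, Slc20a1 shares 452 (8.10%) with 9830144P21Rik, and Slc20a2, Pth1r, Fgfr1 and Cyp24a1 share 83 to 164 bases with such genes. Whether counting kept the strands apart is not stated.

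Slc34a3 (chromosome 2, 25228898 to 25234364, minus strand), the second brush border carrier, was much scarcer, at 21.5, 29.2 and 10.8 CPM in sham. In UUO it was at 0.169 to 2.32 CPM with a median of 0.741, from 2 to 28 counts per library. It reached the level of the filter on low counts in 3 of 3 sham, 2 of 6 UUO and 2 of 6 UUO_Si libraries, where 3 libraries of any group were needed. Its groups did not overlap. Means were 20.5 ± 9.26 and 0.929 ± 0.753 CPM, a 22.1-fold fall (-4.45 ± 0.59; adjusted p = 6.22e-06 by edgeR's quasi-likelihood test). The log2 ratio of Slc34a1 to Slc34a3 per length was 6.34 ± 0.42 in sham and 5.44 ± 0.57 in UUO. This difference had exact permutation p = 0.0476 (two-sided, n = 3 and 6) and adjusted p = 0.190 over 8 tests of ratios and shares, so it did not pass. Part of the difference comes from the prior count of 2 that was added before taking logs. That addition lowers the ratio most where Slc34a3 counts are few, as in UUO.

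Slc20a1 (chromosome 2, 129198764 to 129211616, plus strand), which encodes PiT-1, was at 76.8, 75.4 and 49.1 CPM in sham and at 29.6 to 54.4 CPM in UUO with a median of 41.9. In 5 of 6 UUO libraries it was below all sham libraries, and UUO replicate 3 lay above sham replicate 3. The fall was 1.63-fold (-0.71 ± 0.20; adjusted p = 0.00577 by edgeR's quasi-likelihood test). Without sham replicate 1 the direction was kept but the call was lost (-0.59, adjusted p = 0.0502 in the same test). Slc20a2 (chromosome 8, 22476788 to 22569612, plus strand), which encodes PiT-2, was at 39.5, 38.0 and 33.7 CPM in sham and 29.0 to 38.9 CPM in UUO with a median of 32.6. Its groups overlapped and it did not pass (-0.19 ± 0.11; adjusted p = 0.173), with an interval of 2 standard errors from -0.42 to 0.04. With the 4 receptor-gene libraries left out, edgeR gave -0.32 (adjusted p = 0.0407), and limma-voom on all libraries gave -0.26 (adjusted p = 0.0464), both past the threshold.

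Levels of different carriers were compared per length, as CPM per kilobase of exon. On that scale Slc34a1 had a mean of 672 in sham and 19.0 in UUO, Slc34a3 8.70 and 0.394, Slc20a1 12.03 and 7.37, and Slc20a2 5.97 and 5.23. PiT-1 and PiT-2 together made up 2.51%, 2.53% and 2.75% of carrier transcripts in the sham libraries, and 25.9% to 54.8% in UUO. Their share did not overlap between the groups, at 2.60% ± 0.137 and 42.2% ± 12.8 (SD, n = 3 and 6), a difference of 39.6 percentage points. Its exact permutation p of 0.0119 (two-sided) is the smallest that 3 against 6 libraries allow, and the adjusted p was 0.0952 over 8 tests, which this design cannot bring lower for a single passing test. Because Slc34a1 sets nearly the whole sum in sham, this share moves with the fall of Slc34a1. The log2 ratio of Slc20a1 to Slc20a2 was 0.98 ± 0.25 in sham and 0.47 ± 0.45 in UUO (exact permutation p = 0.119, adjusted p = 0.317).

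**Figure D2:**
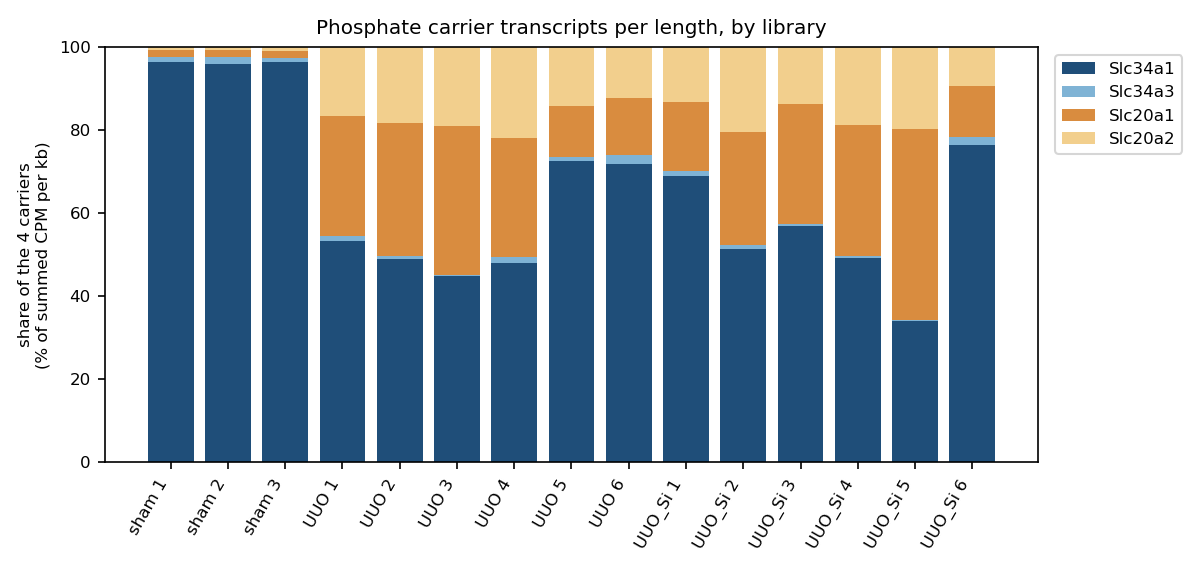
Share of each of the 4 phosphate carriers in their summed CPM per kilobase of exon (in %), a stacked bar for each of the 15 libraries. Slc20a1 and Slc20a2 (orange shades) took 2.51% to 2.75% of the bar in the sham libraries, 25.9% to 54.8% under UUO and 21.6% to 65.8% under UUO_Si.

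Klotho and the parathyroid hormone receptor fell and Fgfr1 rose. Kl (chromosome 5, 150952607 to 150993817, plus strand), which encodes the partner of FGF23 receptors and is shed as a circulating protein, was at 411, 387 and 423 CPM in sham. In UUO it ranged from 39.3 to 78.1 CPM with a median of 45.9. The sham libraries lay within a 1.09-fold span and no UUO library came near them, so that the fall of 7.72-fold (-2.95 ± 0.23; adjusted p = 1.42e-08 by edgeR's quasi-likelihood test) was well beyond the spread. Pth1r (chromosome 9, 110722085 to 110747145, minus strand), the receptor of parathyroid hormone, was at 319.8, 312 and 285 CPM in sham and 113 to 179.6 CPM in UUO with a median of 131. It fell 2.18-fold without overlap (-1.12 ± 0.16; adjusted p = 1.31e-05).

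Fgfr1 (chromosome 8, 25513654 to 25575718, plus strand), the FGF receptor that joins with Klotho, was the sole member to rise. It was at 104, 100.2 and 89.4 CPM in sham and 133 to 172 CPM in UUO with a median of 146. The groups did not overlap, and the rise was 1.51-fold (0.59 ± 0.10; adjusted p = 6.49e-05 by edgeR's quasi-likelihood test). Fibroblasts also use Fgfr1, and the fibroblast and pericyte marker sum was 277 to 398 CPM in sham libraries and 4190 to 8013 CPM in UUO libraries. The part of this in the rise was not tested.

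Vdr (chromosome 15, 97854425 to 97910630, minus strand), the nuclear receptor of calcitriol, was at 329, 212 and 205 CPM in sham and 74.0 to 101 CPM in UUO with a median of 83.4. It fell 2.91-fold without overlap (-1.54 ± 0.17; adjusted p = 5.95e-07 by edgeR's quasi-likelihood test). The activating enzyme gene Cyp27b1 (chromosome 10, 127048250 to 127053006, plus strand) was low everywhere, at 13.3, 12.8 and 5.68 CPM in sham and 7.15 to 11.4 CPM in UUO with a median of 9.65. All UUO libraries lay inside the sham range, and it did not pass (-0.16 ± 0.25; adjusted p = 0.603, interval of 2 standard errors -0.66 to 0.34).

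Cyp24a1 (chromosome 2, 170482708 to 170497145, minus strand), which encodes the enzyme that degrades calcitriol and is itself induced through Vdr, varied most among the sham libraries. They were at 186, 21.4 and 7.199 CPM, a 25.9-fold span, while the 6 UUO libraries ranged from 16.5 to 38.9 CPM with a median of 25.1, all inside the sham range. The fitted fall (-1.44 ± 0.57; adjusted p = 0.0441 by edgeR's quasi-likelihood test) rested on sham replicate 1. Without that library the change was 0.89 (adjusted p = 0.0782), the opposite direction, and without sham replicate 3 it was -1.96 (adjusted p = 0.00214). With the 4 receptor-gene libraries left out it was -2.24 (adjusted p = 0.0117). Sham replicate 1 also had the highest Vdr level, 329 CPM. It was the highest sham library for Slc34a1, Slc20a1, Slc20a2, Pth1r, Fgfr1 and Cyp27b1 as well, though not for Slc34a3 or Kl. A link between the Vdr and Cyp24a1 levels was not tested. The log2 ratio of Cyp24a1 to Cyp27b1 per length was 3.32, 0.27 and -0.14 in the sham libraries and 0.16 to 1.64 in UUO (exact permutation p = 0.821, adjusted p = 0.965).

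The order of levels per length changed. In sham the means in CPM per kilobase ran from Slc34a1 (672) and Pth1r (104) to Vdr (44.0), Kl (43.7), Cyp24a1 (20.1), Slc20a1 (12.03), Fgfr1 (9.91), Slc34a3 (8.70), Slc20a2 (5.97) and Cyp27b1 (4.12). Slc34a1 and Pth1r stood clear of each other and of all lower genes in every library, Vdr and Kl overlapped, Slc20a1, Fgfr1 and Slc34a3 overlapped, and Cyp24a1 overlapped every gene from Vdr downward. In UUO Pth1r led with a mean of 48.0, ahead of Slc34a1 (19.0), Vdr (15.1) and Fgfr1 (14.96), which overlapped. Cyp24a1 (7.50), Slc20a1 (7.37), Kl (5.66) and Slc20a2 (5.23) formed an overlapping group. Cyp27b1 (3.72) lay below Slc20a2 in every library but overlapped Kl, and exceeded it in UUO replicate 3 (4.44 against 4.21). Slc34a3 (0.394) lay below all others.

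Set against the proximal tubule markers of the same library, the members differed. The log2 level of Slc34a1 minus the mean log2 level of the 12 markers was 2.93 ± 0.28 in sham and 1.27 ± 0.15 in UUO (SD, n = 3 and 6), so Slc34a1 lost more than the markers did on average. Single markers ranged from -5.66 to -1.20 in log2 fold change, so the steepest fell more than Slc34a1 (-5.14). The difference from the marker mean for Slc34a3 was -4.40 ± 0.67 and -5.16 ± 0.60. The prior count of 2 raised the log2 level of Slc34a3 most at its low counts in UUO. Kl kept closer to the proximal markers, at 0.01 ± 0.12 and 0.61 ± 0.24, and against the 7 distal markers it was at 1.77 ± 0.07 and 1.27 ± 0.38. Pth1r went from -0.41 ± 0.02 to 2.04 ± 0.33 and Vdr from -0.74 ± 0.33 to 1.34 ± 0.41 against the proximal markers, which fell more than these receptors. For the other members this difference went from -2.62 to 0.27 for Slc20a1, -3.44 to -0.05 for Slc20a2, -2.05 to 2.13 for Fgfr1, -5.32 to -1.80 for Cyp27b1 and -3.71 to -0.38 for Cyp24a1. These differences are descriptions and were not tested, nor was the part of tubule loss in them.

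Other genes of the same pathways came from lists set by their known roles. Of 15 further genes of phosphate handling 9 fell, 3 rose and 3 did not pass, with a median log2 fold change of -0.65. These 12 of 15, and the counts of the lists that follow, stand beside 53.9% called among all genes and a median of -0.04, and nothing particular to a list is read from them. The scaffold genes Pdzk1 (-3.55 ± 0.21) and Slc9a3r1 (-1.60 ± 0.13), which anchor Slc34a1 protein at the brush border, fell from 1058 ± 89.9 to 90.3 ± 21.5 CPM and from 326 ± 28.9 to 108 ± 14.5 CPM. The anion carrier genes Slc17a3 (-4.29 ± 0.29) and Slc17a2 (-4.24 ± 0.29) fell as well, with adjusted p = 2.3e-09 and 3.05e-09 in edgeR's quasi-likelihood test. The 3 that rose are named after their values were seen. They were Slc34a2, which encodes the intestinal and lung carrier NaPi-IIb (3.77 ± 2.18 to 41.7 ± 8.87 CPM, 3.52 ± 0.33), and the pyrophosphate genes Ank (1.26 ± 0.12) and Enpp1 (0.63 ± 0.15).

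In the FGF23 and Klotho pathway 10 of 11 listed genes could be tested, Fgf23 itself being too low, and 5 rose, 2 fell and 3 did not pass (median 0.28). The receptor genes Fgfr3 (-2.05 ± 0.17) and Fgfr4 (-2.02 ± 0.18) fell, with means going from 86.0 to 20.8 CPM and from 44.2 to 10.9 CPM, while Fgfr1 rose. The protease genes Adam10 (1.44 ± 0.14; 71.8 ± 4.07 to 195 ± 28.9 CPM) and Adam17 (0.83 ± 0.11), whose products can cleave Klotho from the cell surface, rose. The adjusted p of edgeR's test was 2.96e-08 for Fgfr3, 7.33e-08 for Fgfr4, 2.28e-07 for Adam10 and 6.44e-06 for Adam17. Without the 4 receptor-gene libraries 9 genes were tested, with 4 higher and 2 lower, beside 57.4% of all genes called at that setting.

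Of the parathyroid hormone pathway 9 of 10 listed genes could be tested, Pth being too low, and 2 rose, 2 fell and 5 did not pass (median -0.08), a share of 44.4%, below the 53.9% of all genes. The calcium-sensing receptor gene Casr (-0.76 ± 0.15) and the adenylate cyclase gene Adcy6 (-0.73 ± 0.19) fell, and the protein kinase A subunit gene Prkar1a (0.51 ± 0.10) and the G protein gene Gnaq (0.32 ± 0.08) rose, with adjusted p = 2.87e-04, 0.00415, 4.22e-04 and 0.00276 in edgeR's quasi-likelihood test. The changes of these named genes were smaller than that of Pth1r (-1.12), while Pth2r of the same list, at -1.14 ± 1.39, did not pass.

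Of the vitamin D pathway 16 of 17 listed genes could be tested, Rxrg being too low, and 11 fell, 3 rose and 2 did not pass (median -0.75). The largest fall was in Calb1, the calcium buffer calbindin of the distal tubule, from 271 ± 43.0 to 13.2 ± 5.86 CPM (-4.36 ± 0.32). Lrp2 (-3.72 ± 0.25) and Cubn (-3.36 ± 0.23), the endocytic receptors that bring filtered vitamin D into the proximal cell, and Fdx1 (-1.92 ± 0.14), which passes electrons to mitochondrial P450 enzymes such as Cyp27b1, fell with it. Lrp2 and Cubn are also among the proximal tubule markers, and Calb1, Slc8a1 and Trpv5 among the distal ones. Of the 7 distal markers 6 fell and 1, Trpv5, rose. The 3 genes that rose, named after their values were seen, were the calcium channel genes Trpv5 (0.84 ± 0.21) and Trpv6 (1.51 ± 0.34) and the calcium pump gene Atp2b1 (0.57 ± 0.08). Without the 4 receptor-gene libraries, which include sham replicate 3, 12 fell and 4 rose. At that setting 57.4% of all genes were called, and nothing particular to the list is read from this count.

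**Figure D3:**
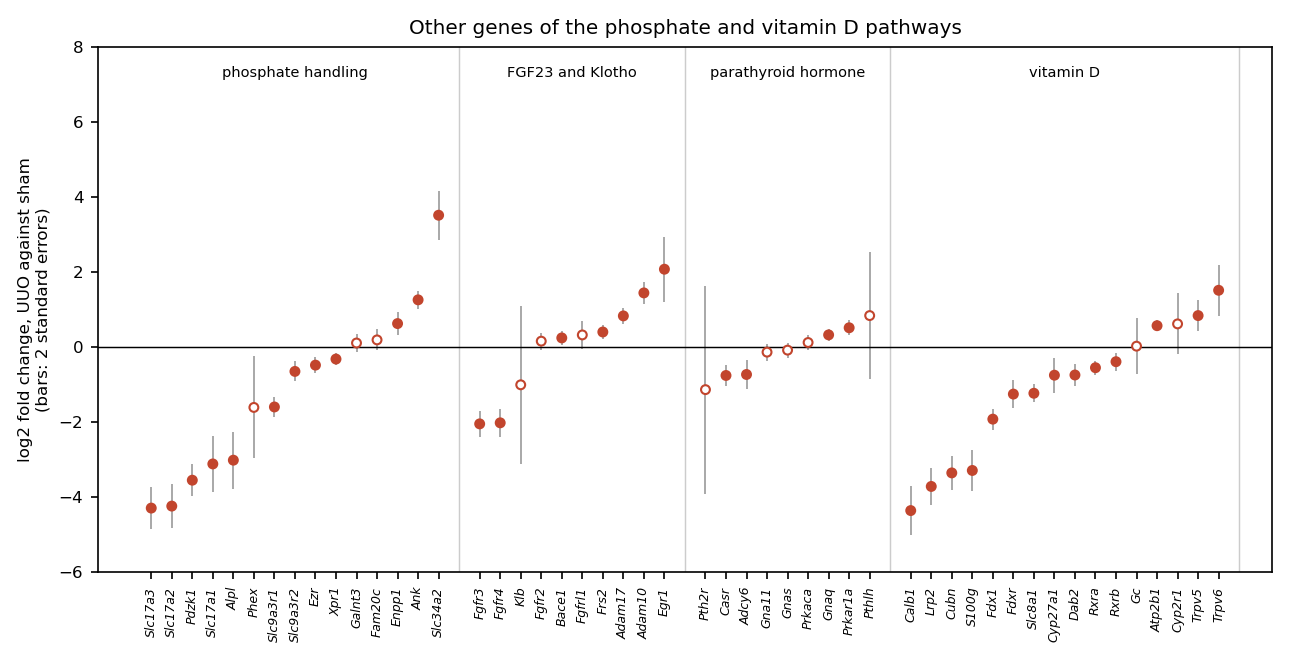
Log2 fold change of UUO against sham (vertical axis, bars of 2 standard errors) for 50 tested genes in 4 pathway lists, ordered by size within each list. Filled points passed the test at an adjusted p of 0.05 and open points did not. The phosphate list runs from Slc17a3 at -4.29 to Slc34a2 at 3.52, and the vitamin D list from Calb1 at -4.36 to Trpv6 at 1.51.

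The comparison of UUO_Si with UUO asked whether the agent moved these genes in the obstructed kidney. None of the 10 members passed edgeR's quasi-likelihood test, at an adjusted p of 0.999 for each, and none passed at an unadjusted p of 0.05. Over all genes 0 of 16752 (0.0%) passed and 626 (3.74%) had an unadjusted p under 0.05, DESeq2 called 2 genes and limma-voom 0. The groups overlapped in all 10 members, against 34 genes (0.203%) that did not overlap. The changes were above 0 in 8 members and below 0 in 2, with a median of 0.09 beside 0.00 for all genes.

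The brush border carriers were spread widely among the obstructed libraries. In UUO_Si Slc34a1 was at 34.4 to 213 CPM with a median of 84.9, and at 101 ± 63.4 CPM against 89.0 ± 44.9 in UUO. The lowest and the highest of the 12 obstructed libraries both belonged to UUO_Si. The log2 fold change was 0.18 ± 0.37, with an interval of 2 standard errors from -0.56 to 0.92. It was -0.18 without UUO_Si replicate 6 and 0.38 without the 3 libraries of codes RM6 and RM7. Slc34a3 was at 0.126 to 2.92 CPM with a median of 0.642 in UUO_Si, from 1 to 35 counts per library (0.12 ± 0.59, interval -1.07 to 1.31), and at -0.67 without UUO_Si replicate 6.

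The other carriers differed little between the diets. Slc20a1 was at 36.1 to 61.1 CPM with a median of 45.6 in UUO_Si (0.20 ± 0.16, interval -0.12 to 0.53). It was at 0.081 without codes RM6 and RM7. Slc20a2 was at 26.6 to 36.3 CPM with a median of 32.4 (-0.01 ± 0.09, interval -0.19 to 0.18), the narrowest interval but that of Fgfr1. PiT-1 and PiT-2 made up 21.6% to 65.8% of carrier transcripts per length in UUO_Si, 42.9% ± 15.6 against 42.2% ± 12.8 in UUO (exact permutation p = 0.935, adjusted p = 0.965, n = 6 each). Of the ratios, Slc34a1 to Slc34a3 differed by 0.20 (exact permutation p = 0.511), Slc20a1 to Slc20a2 by 0.22 (p = 0.390) and Cyp24a1 to Cyp27b1 by 0.02 (p = 0.965) on the log2 scale.

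Kl had the largest value of any member between the diets. It was at 38.4 to 91.5 CPM in UUO_Si with a median of 57.8, against a median of 45.9 in UUO, and means were 62.0 ± 19.3 and 52.8 ± 15.5 CPM. The change of 0.24 ± 0.20 had an interval from -0.16 to 0.63, and its leave-one-out values ran from 0.090 to 0.38. Within codes RM3 and RM4 it was 0.37. Pth1r was at 115 to 198 CPM with a median of 143 (0.05 ± 0.13, interval -0.22 to 0.32). Fgfr1 was at 127 to 159.5 CPM with a median of 135.5 (-0.10 ± 0.08, interval -0.25 to 0.05).

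Vdr was at 63.7 to 118 CPM in UUO_Si with a median of 95.0, against 83.4 in UUO (0.13 ± 0.14, interval -0.15 to 0.42). Cyp27b1 was at 6.78 to 13.25 CPM with a median of 10.7 (0.07 ± 0.20, interval -0.33 to 0.46). Cyp24a1 was at 17.1 to 38.8 CPM with a median of 27.3 (0.04 ± 0.49, interval -0.94 to 1.03), and all its UUO_Si libraries lay inside the UUO range. A test that misses the threshold does not show that the diets gave equal levels, and for Slc34a3 and Cyp24a1 changes of about 1 on the log2 scale lay within the interval.

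In the pathway lists 0 genes passed between the diets in edgeR's quasi-likelihood test. At an unadjusted p under 0.05 there were 2 in the phosphate list, Slc9a3r2 (-0.27 ± 0.11), a scaffold related to Slc9a3r1, and Xpr1 (0.15 ± 0.07), the phosphate exporter, and 0 in the other lists. List medians were 0.08 for phosphate handling, -0.02 for FGF23 and Klotho, -0.06 for parathyroid hormone and 0.10 for vitamin D. The smallest p in the other lists belonged to Fgfr4 (0.28 ± 0.16) and the immediate early gene Egr1 (-0.52 ± 0.31), to Gnas (-0.09 ± 0.08) and Casr (0.13 ± 0.12), and to Rxra (-0.14 ± 0.08) and Calb1 (0.46 ± 0.28), and none of these passed.

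UUO_Si differed from sham in both the operation and the diet. Of the 10 members 6 fell, 1 rose and 3 did not pass, 7 of 10 against 52.7% of all genes (25.5% lower and 27.2% higher), and 6 did not overlap against 45.7% of all genes. At an unadjusted p under 0.05 it was 8 of 10 against 58.1%. As UUO and UUO_Si were set against the same sham libraries, their values stand side by side without a test of likeness. Slc34a1 was at -4.96 (31.1-fold lower), Slc34a3 at -4.33, Kl at -2.71, Vdr at -1.41, Pth1r at -1.07 and Fgfr1 at 0.49, with adjusted p = 1.07e-07, 1.06e-05, 4.31e-08, 1.94e-06, 2.34e-05 and 3.98e-04 in edgeR's quasi-likelihood test. Slc20a1 passed at -0.51 (adjusted p = 0.0414), a call lost without sham replicate 1 (-0.38, adjusted p = 0.196), sham replicate 2, or any of UUO_Si replicates 1, 2, 4 and 6, and under upper-quartile scaling (adjusted p = 0.0743) or no filter (adjusted p = 0.0726). Slc20a2 (-0.20), Cyp27b1 (-0.09) and Cyp24a1 (-1.39, adjusted p = 0.0524) did not pass, and Cyp24a1 was at 0.94 without sham replicate 1.

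**Figure D4:**
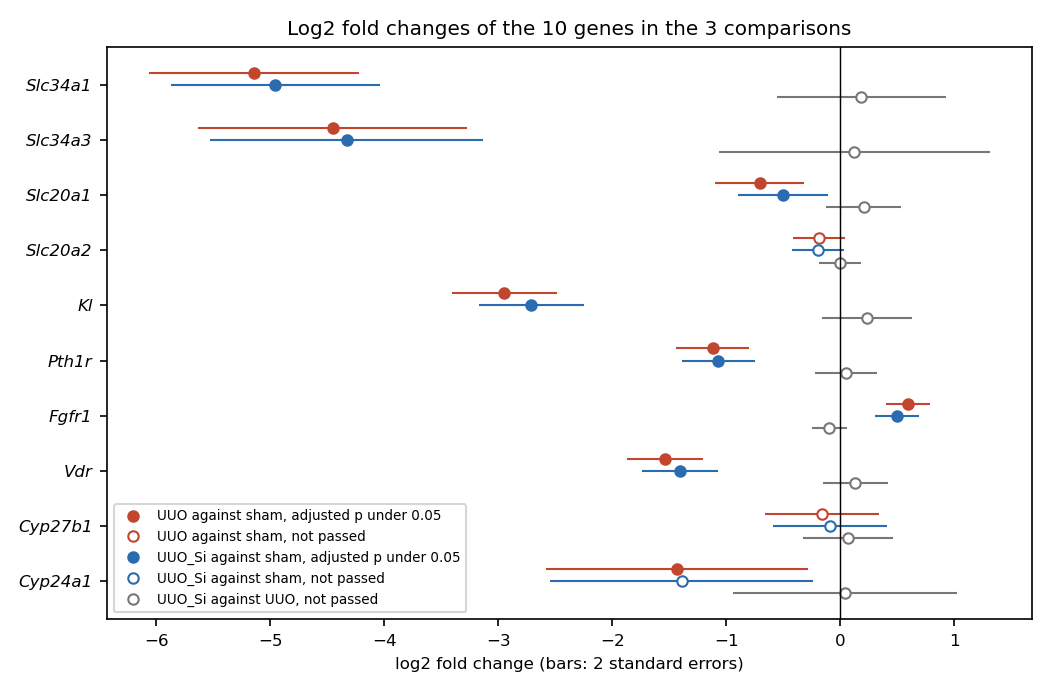
Log2 fold change of each member (horizontal axis) in the comparisons of UUO with sham (red), UUO_Si with sham (blue) and UUO_Si with UUO (grey), with bars of 2 standard errors and filled points at an adjusted p under 0.05. Kl lies at -2.95 and -2.71 against sham, Fgfr1 at 0.59 and 0.49, and each grey bar crosses 0.

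Among the 12 obstructed libraries most members, but not Fgfr1, Slc20a1 and Cyp27b1, varied together with the proximal tubule markers. Across these libraries the log2 level of Slc34a1 had a Pearson correlation of 0.98 with the mean log2 level of the 12 markers, and of 0.96 over the 9 libraries with codes RM3 and RM4. The values for Kl were 0.90 and 0.79, for Pth1r 0.90 and 0.64, for Slc34a3 0.88 and 0.67, for Vdr 0.87 and 0.89, for Cyp24a1 0.87 and 0.72 and for Slc20a2 0.70 and 0.67. Fgfr1 (-0.72 and -0.77) and Slc20a1 (-0.61 and -0.24) ran the other way, and Cyp27b1 was at 0.27 and 0.47. These are descriptions over libraries that share scaling, diet group and code, with no p, and the value for Slc20a1 depended on the RM6 and RM7 libraries. Those 3 libraries had proximal marker sums of 1610 to 1997 CPM against 808 to 1627 in the other 9, and injured tubule sums of 11468 to 12621 against 4833 to 9405 CPM.

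In 6 of the 10 members (Slc34a1, Slc34a3, Kl, Pth1r, Vdr and Cyp24a1) the RM6 and RM7 libraries lay above all other libraries of their group. The share of all genes placed in this way was not counted. With 2 libraries of code RM6 and 1 of RM7, nothing particular to the members is read from it. Slc20a1 lay below in UUO and inside the range in UUO_Si, Fgfr1 overlapped in UUO and lay below in UUO_Si, and Slc20a2 and Cyp27b1 overlapped in both. The part of the code in the levels was not tested. Slc34a1 was at 54.2 to 70.2 CPM in the 4 UUO libraries with code RM3 and at 145 to 149 in the 2 with RM6, and at 34.4 to 126 in the 5 UUO_Si libraries with RM4 and 213 in the library with RM7. Kl was at 39.3 to 48.2 and 65.2 to 78.1 CPM in UUO, and at 38.4 to 77.5 and 91.5 in UUO_Si. Pth1r was at 113 to 132 and 170.3 to 179.6 CPM in UUO, and at 115 to 145 and 198 in UUO_Si. With the RM6 and RM7 libraries left out of the comparison between the diets (9 libraries), the changes were 0.38 for Slc34a1, 0.37 for Kl, 0.20 for Cyp24a1, 0.16 for Vdr, 0.13 for Pth1r and -0.12 for Fgfr1, and none passed.

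**Figure D5:**
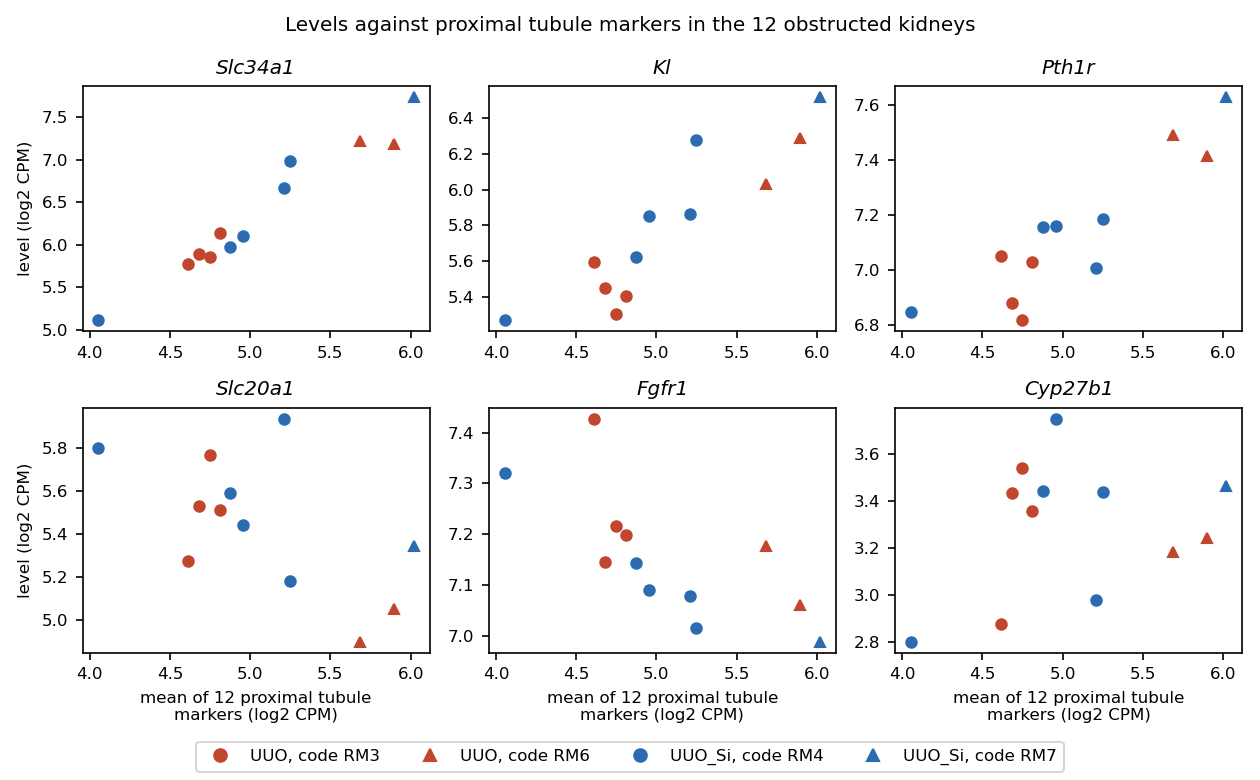
Log2 CPM of 6 members (vertical axes) against the mean log2 CPM of 12 proximal tubule markers (horizontal axes) in the 12 obstructed libraries, red for UUO and blue for UUO_Si, with triangles for codes RM6 and RM7. Slc34a1, Kl and Pth1r run upward (r = 0.98, 0.90 and 0.90), Fgfr1 and Slc20a1 downward (r = -0.72 and -0.61), and Cyp27b1 shows little order (r = 0.27).

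Among the members themselves, Slc34a1 and Kl had r = 0.92 over the 12 libraries, Pth1r and Cyp24a1 0.91, Slc34a3 and Kl 0.89, Vdr and Cyp24a1 0.89, and Slc34a1 and Slc34a3 0.89. Over the 9 libraries with codes RM3 and RM4 these values were lower, at 0.85, 0.83, 0.75, 0.86 and 0.73 in the same order. Over all 12253 genes with a mean of at least 5 CPM in the 12 libraries and an established symbol, those most like Slc34a1 included Tmem27 (collectrin) and the protease gene Hpn, each with r = 0.98. The genes most like Kl were Hmgcs1 of cholesterol synthesis (0.97), Nudt19 (0.97) and Acadm of fatty acid oxidation (0.97), and those most like Pth1r were Mgst1 (0.97), Papss2 (0.96) and Bnip3l (0.96). For Slc34a3 they were Nus1 (0.98), Chchd3 (0.97) and Mpc2 (0.97), for Vdr B3gat2 (0.94), Dhrs4 (0.94) and Acox2 (0.93), and for Cyp24a1 Gnpnat1 (0.97), Krcc1 (0.96) and Tmem33 (0.96). Slc20a2 lay nearest Ddb1 (0.93), Ndufa2 (0.91) and Manba (0.90). Slc20a1 lay nearest Dna2 (0.96) and the innate immune genes Aim2 (0.94) and Nlrc5 (0.92), Fgfr1 nearest Cped1 (0.92), Zeb2 (0.91), a transcription factor of mesenchymal cells, and Htra4 (0.89), and Cyp27b1 nearest Entpd6 (0.79), Faap20 (0.77) and Vstm5 (0.77). Each was the highest of many correlations over few libraries, those of codes RM6 and RM7 included, and no p is given.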

How the data were processed

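RNA of 15 mouse kidney samples was measured. Per the labels' protocols, RNeasy RNA was made into libraries with a SMARTer stranded total RNA kit. The authors deposited a table of unnormalised values per gene symbol, which are estimated counts judging by their differing totals and values that are not all whole. They were rounded. TopHat2 2.1.1, Cuffdiff 2.2.1 and mm10 are named per the submitters' processing notes; their roles, strand setting and annotation are not given in the sources used here.

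Genes were filtered with edgeR 4.0.16 (minimum count 10; 16752 genes, all 10 members among them), scaled with TMM and tested with its robust quasi-likelihood test in 1 fit of all 15 libraries (R 4.3.3). P-values were adjusted over all genes by Benjamini-Hochberg and called at 0.05. CPM used TMM-scaled library sizes and log2 levels a prior count of 2. The standard error is the absolute log2 fold change over the square root of F. Ratios within a library were compared by two-sided exact permutation tests. Positions and exonic lengths came from GENCODE M21 (GRCm38), which held 23376 of 24421 symbols (95.7%), and promoters from RefSeq.

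Named genes were all members, up to 4 genes of each pathway list with the smallest p in UUO against sham and up to 2 in UUO_Si against UUO, and the 3 genes most correlated with each member, of which 1 is not reported here. Members, lists and settings were chosen with earlier results of these data known. Alternatives were scaling by RLE or by the upper quartile, a minimum count of 30 or no filter, leaving Rn45s and haemoglobin genes out, limma-voom (limma 3.58.1), DESeq2 1.42.0, fits of only 2 groups, a replicate block, a smaller prior count for ratios, and leaving out each library, the 4 receptor-gene libraries or codes RM6 and RM7. The steps were tested on simulated data. The highest correlation between libraries was 0.987.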

Additional observations from a re-analysis of the deposited data

How the results depend on the processing

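For UUO against sham, 197 of 200 member values under 20 alternatives kept their direction and 149 passed. For UUO_Si against UUO, 210 of 229 kept their direction and 0 passed, and for UUO_Si against sham 196 of 200 kept it and 135 passed. The alternatives refit the same libraries, and nothing particular to the members is read from these counts. The share of all genes called, pooled over the alternatives, is not given. In UUO against sham it was 43.3% without sham replicate 1, 56.1% without codes RM6 and RM7 and 57.4% without the 4 receptor-gene libraries. In UUO_Si against sham it was 43.2%, 57.4% and 58.3%. In the main fit, genes called numbered 9036, 0 and 8834 in the same order of comparisons, and DESeq2 called 2 between the diets. Cyp24a1 against sham ran from -1.96 to 0.89 in UUO and from -1.92 to 0.94 in UUO_Si with a library left out, and Cyp27b1 from -0.45 to 0.048 and -0.38 to 0.12. In UUO the Cyp24a1 call was lost in 12 of 20 alternatives, among them DESeq2 (-1.41, adjusted p = 0.0692) and limma-voom (-0.90, adjusted p = 0.165). In UUO_Si against UUO, leaving out 1 library moved Slc34a1 from -0.18 to 0.39, Slc34a3 from -0.67 to 0.58, Slc20a2 from -0.040 to 0.053, Pth1r from -0.061 to 0.13, Cyp27b1 from -0.029 to 0.15 and Cyp24a1 from -0.087 to 0.18. Slc20a2 was at 0.039 in limma-voom and at 0.044 both without the 4 receptor-gene libraries and without codes RM6 and RM7, and Casr at -0.0035 and -0.0036 in those last settings. The carrier share differed by -3.07 points without the 4 libraries and by -3.87 to 4.97 with 1 library left out. The log2 ratio of Cyp24a1 to Cyp27b1 ran from -0.85 to 0.88 (UUO against sham) and from -0.14 to 0.15 (UUO_Si against UUO). Causes were not tested. Slc34a3 could not be fitted with only the obstructed groups, where the filter dropped it.

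With a replicate block, 8433, 0 and 8268 genes passed. Cyp27b1 against sham was then at 0.017 in UUO and 0.055 in UUO_Si, Slc34a3 between the diets at -0.029, and the calls of Cyp24a1 in UUO (-0.85, adjusted p = 0.317) and Slc20a1 in UUO_Si (-0.40, adjusted p = 0.170) were lost. The labels tied same-numbered libraries by number only. Their deviations correlated at -0.39 to 0.75 between the obstructed groups, and 1 of 6 UUO libraries correlated best with its own number. The value of 0.75 was that of replicate 6, where both libraries were receptor-gene libraries, with codes RM6 and RM7.

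Counts per library were low for Slc34a3 in the obstructed groups (1 to 35) and for Cyp27b1 (30 to 140), which limits the precision of their values.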
